A study of Ovis aries with 3 samples.

Results

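Cells that carry transcripts of the plasma proteins made by yolk sac endoderm and by the early liver were examined in 3 single-cell RNA libraries of whole sheep embryos. A kept cell was selected when at least 3 of *APOA2*, *FGG*, *SERPINA1*, *AHSG* and *TTR* had a unique molecular identifier (UMI, a tag that marks 1 captured transcript), when these 5 genes held at least 10 UMIs together, and when *AHSP*, the chaperone of alpha-globin in red blood cells, had under 5. The rule selected 315 of 31576 kept cells. E19 HSTS had 119 of 9618 (1.24%, 1.03 to 1.48%), E19 HS 120 of 10629 (1.13%, 0.937 to 1.35%) and E16 HS 76 of 11329 (0.671%, 0.529 to 0.839%). Where 3 values stand in a row, they follow this order of libraries. Intervals are exact at the 95% level throughout (binomial for shares, Poisson for levels) and cover counting error only.

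The study compared embryos of the Hulunbuir short-tailed sheep (HSTS) and of the Hu sheep (HS), to follow tail development with and without a loss-of-function allele of *T*, which HSTS is described as carrying and for which HS is described as wild type. The labels give breed and embryonic day and no genotype of an embryo. E19 HSTS and E19 HS are 1 embryo each at day 19. E16 HS is labelled as 1 embryo at day 16, whereas the series text counts 3 such embryos, and whether they were pooled could not be settled. Embryos were freed into cells with collagenase and red blood cells were lysed in all 3. Each group has 1 library, so no test was made, and a difference in breed or in stage cannot be told apart from a difference between embryos or libraries.

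Plasma proteins of the early embryo come from the endoderm of the yolk sac and, from its budding out of the ventral foregut, from the liver. Both secrete alpha-fetoprotein, transferrin, fetuins and apolipoproteins under transcription factors of the HNF group, so these products are shared between the 2 sources that the name of this population joins. Yolk sac endoderm is known for endocytic uptake through megalin (*LRP2*), cubilin (*CUBN*) and their adaptor *DAB2*, and hepatoblasts, the progenitors of the liver, for the homeobox factors *HHEX* and *PROX1*.

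The 5 genes of the rule separated the selected cells from the rest by more than their threshold required in most, though not all, of them. Their summed UMIs per selected cell had medians of 425 (10 to 6784), 572 (10 to 2825) and 184.5 (10 to 5556). At least 100 UMIs were present in 91, 91 and 47 cells, and 13, 9 and 14 cells held 10 to 19. The remaining kept cells had no UMI of these genes in 76.1%, 88.1% and 74.2% of cases. All 5 genes were detected in 85, 97 and 45 selected cells. These values describe the choice and support nothing else.

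**Figure D1:**
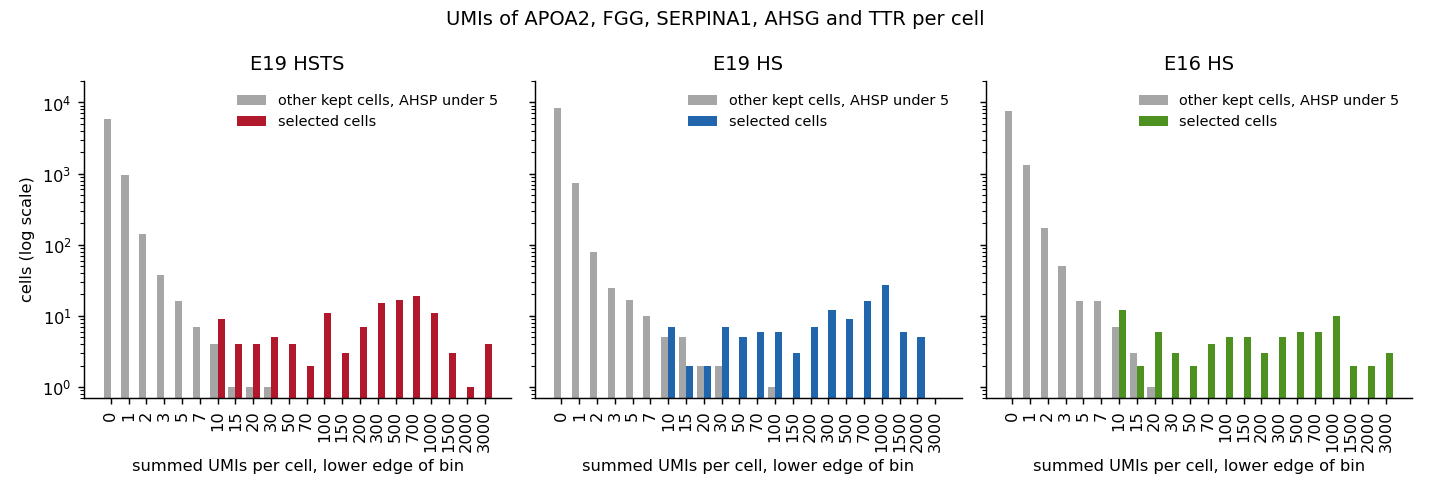
Number of cells (vertical axis, log scale) by the summed UMIs of the 5 genes of the rule per cell (horizontal axis, lower edge of each bin), for selected cells (coloured) and for other kept cells with *AHSP* under 5 UMIs (grey), in each library. Selected cells spread from 10 UMIs to 6784, 2825 and 5556, with medians of 425, 572 and 184.5, and share the bins from 10 to 30 UMIs with other cells in each library. In the E19 libraries 1 and 2 other cells lie at 30 to 50 UMIs, and 1 of E19 HS lies at 100 to 150.

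Next to the threshold *AFP* was found in few cells and *TF* in many. Of the cells with 10 to 12 UMIs of the 5 genes, 3 of 8, 0 of 4 and 0 of 6 had a UMI of *AFP*. Of those with 7 to 9 UMIs, a UMI of *AFP* was present in 0 of 6, 0 of 3 and 1 of 7. *TF* was found in 4 of 8, 2 of 4 and 4 of 6 of the first and in 6 of 6, 2 of 3 and 2 of 7 of the second, and *AMBP* in 3, 3 and 1 and in 1, 1 and 0. Free RNA was read from cells with at least 50 *AHSP* UMIs, which should lack these genes. In them the 5 genes reached 30.8, 18.7 and 95.9 UMIs per 1000000 UMIs (CPM), against 61.3, 31.7 and 45.7 CPM in all other kept cells and 56007, 59986 and 63713 CPM in the selected cells. In a cell of median depth such a level is under 1 UMI. The *AHSP* limit left out 4, 6 and 2 cells that otherwise met the rule.

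Between libraries, 38 to 42 cell barcodes were shared, and 1 selected barcode of E19 HSTS and 1 of E19 HS also occurred in another library. The median depth of the selected cells was 12867, 11839.5 and 8768.5 UMIs, against 8659, 6871 and 9047 in the other cells. Under 1% mitochondrial UMIs were found in 28, 22 and 44 selected cells (23.5%, 18.3% and 57.9%), against 14.8%, 11% and 16.7% of the others. No doublets were removed.

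Among lists of markers of other cell types, those of blood, endothelium and mesenchyme were lower in the selected cells than in the other cells, and those of gut epithelium and trophoblast were not. The summed level of 10 erythroid genes with a symbol was 127, 116 and 172 CPM, against 2244, 1292 and 1512 CPM in the other cells, with 4, 6 and 4 of the genes at 0. Endothelial genes summed to 2.11, 28.9 and 4.09 CPM and myeloid genes to 9.85, 5.79 and 1.36 CPM, with 8, 7 and 8 of 10 and 8, 6 and 9 of 10 genes at 0. In E19 HS a few cells held most of what was seen: 1 cell had 23 of 31 UMIs of the endothelial *PLVAP*, and 1 cell had 80 of 101 UMIs of the cardiac actin *ACTC1*. Mesenchymal genes reached 339, 255 and 431 CPM, with up to 95 UMIs in a cell of E16 HS, below the 726, 916 and 3128 CPM of the other cells. Genes of gut epithelium summed to 354, 262 and 537 CPM, against 146, 197 and 199 CPM in the other cells, with 3, 3 and 4 of 10 at 0. Genes of trophoblast summed to 43.6, 59.3 and 62.7 CPM, against 24.3, 29.0 and 58.0 CPM, with 6, 4 and 5 of 10 at 0. Mesothelial genes summed to 504, 305 and 1546 CPM, against 261, 314 and 1565 CPM, nearly all of it *KRT19*, which simple epithelia share. The part of such transcripts in the differences described here was not tested.

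The hepatic side of the name was borne out at E19. The hepatoblast markers *ALB*, *HHEX*, *PROX1*, *ONECUT1* and *TBX3* had at least 9 UMIs in each library, and *LGR5* had 0, 1 and 1. The yolk sac side was borne out in part, and least in E19 HS. *SOX17* and *SOX7*, transcription factors of extraembryonic endoderm, had 0 UMIs in every library, which allows up to 2.11, 2.17 and 4.09 CPM. *CUBN* had 4, 0 and 1 UMIs and *GATA4* 1, 1 and 3. *LRP2* had 59, 27 and 49 UMIs and *DAB2* 57, 7 and 139, so that these uptake genes were scarcest in E19 HS. The 13 genes with a symbol in the list of endocytic uptake summed to 314, 188 and 511 CPM. In the other cells they summed to 166, 203 and 241 CPM, so in E19 HS the list was not higher in the selected cells. *AMN*, the partner of cubilin, carries no symbol in the tables.

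Beyond the 5 genes of the rule, the selected cells shared a secretory liver-type profile in all 3 libraries. Ranked by the median ratio of their CPM to that of the other cells, the leading genes were *FETUB* (fetuin B), *OTC* (a urea cycle enzyme), *KNG1* (kininogen), *AMBP* (the precursor of alpha-1-microglobulin and bikunin), *TF* (transferrin), *AFP*, *APOC2*, *SERPINC1* (antithrombin), *ALB* (albumin), *F2* (prothrombin), *FGB* (fibrinogen beta chain) and *RGN* (regucalcin). *FETUB* was 1703, 3096 and 4802 times the level of the other cells. For *TF*, which carries iron, the ratios were 504, 774 and 704. For *AMBP* they were 1379.6, 1373 and 193, so its lead was smallest in E16 HS. *APOC2*, an activator of lipoprotein lipase, had 321, 206 and 18.8. The cells were picked on 5 genes of the same programme, so these ratios describe the choice and are no test.

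The large plasma carriers were abundant at both days. *AFP*, the fetal counterpart of albumin, was at 3511, 2978 and 5799.8 CPM. *ALB* itself was far lower at 157, 122 and 230.5 CPM, and its highest count in a cell was 28 UMIs. Per cell, *AFP* had medians of 23 (0 to 306), 15 (0 to 246) and 6 (0 to 638) UMIs, and it was at 0 in 21, 21 and 29 cells. The ranges of the 3 libraries overlapped from 0 to 246 UMIs, and the highest cells were in E16 HS.

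Genes of mature hepatocytes were at or near 0. *CYP7A1*, the rate-limiting enzyme of bile acid synthesis, and *PCK1* and *G6PC*, which act in gluconeogenesis, had 0 UMIs in the selected cells of all 3 libraries. *CPS1*, the entry enzyme of the urea cycle, reached 15.5, 15.9 and 1.36 CPM. The nuclear receptor *HNF4A*, a central regulator of liver genes, was at 78.1, 64.4 and 65.5 CPM, and the ratio of E16 HS to E19 HS, 1.02 (0.70 to 1.46), lay within counting error of 1.

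At day 19, few coagulation or apolipoprotein genes differed at least 2-fold between the selected cells of the breeds, near the share over all genes. A gene was counted as past the fold when its CPM differed at least 2-fold, among genes with at least 20 UMIs over the selected cells of both libraries. Of 5749 such genes, 385 were higher (6.70%) and 144 lower (2.50%) in E19 HSTS, and the median ratio was 1.06. The numbers of genes move with the minimum: with at least 100 UMIs they were 59 and 22. In the coagulation list 0 of 9 genes were past the fold, with a median ratio of 0.866. In the list of apolipoproteins and lipid export 1 of 10 was, with a median of 1.06. That gene was *APOM*, with a ratio of 2.01, and without cells with at least 3 UMIs of *AQP8* its ratio was 1.10 (0.960 to 1.27). *AMBP* was at 2249 and 2719 CPM and *SERPINA6*, which carries cortisol, at 488 and 470.2 CPM, and for *SERPINA6* the interval of the ratio held 1.

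Among the carriers of plasma, 1 of 15 genes was higher and 2 were lower in E19 HSTS, beside 6.70% and 2.50% over all genes. *HPX*, which binds free haem, was 2.55-fold (2.06 to 3.16) lower in E19 HSTS, at 88.7 against 226 CPM. *ITIH3*, a heavy chain of the inter-alpha-inhibitors that stabilise hyaluronan, was at 8.44 and 40.5 CPM. *FETUB* was at 868 and 319 CPM, 2.72 (2.44 to 3.04) times as high in E19 HSTS. Of its 1233 UMIs in E19 HSTS, 643 lay in 7 cells with at least 3 UMIs of the water channel *AQP8*, and without cells of that kind the ratio was 1.47. Complement component *C5* was at 9.15 and 55.7 CPM, 6.09-fold (3.36 to 11.9) lower in E19 HSTS, and in the other cells the ratio was 0.819.

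The transcription factors past the fold were higher in E19 HSTS. They were 2 of the 10 measured hepatic factors (6.70% over all genes), with 0 lower and a median ratio of 1.28. *NR5A2*, a nuclear receptor of endoderm and liver, was at 28.8 and 10.1 CPM, with a ratio of 2.85 (1.52 to 5.66) against 0.805 in the other cells. *HHEX* was at 78.8 and 40.5 CPM, with a ratio of 1.95 (1.40 to 2.73), just short of the fold. A UMI of *HHEX* was found in 54.6% and 36.7% of the cells, and, with every cell thinned to 3000 UMIs, in 26.0% (17.9 to 35.5%) and 14.9% (8.56 to 23.3%). *GATA6*, a factor of extraembryonic endoderm and foregut, had 25 and 9 UMIs.

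Apart from *AQP8*, *MT1A*, *MT1C* and *TM4SF18*, which are described with the cells that carry them, the genes with the highest ratios of E19 HSTS to E19 HS among those with at least 100 UMIs were *SKIL*, *MAP1B* and *ARHGAP28*. *SKIL*, a repressor of SMAD signalling, was at 173 and 39.1 CPM, with a ratio of 4.43 (3.29 to 6.07) against 1.55 in the other cells. *MAP1B*, a microtubule-associated protein, had a ratio of 4.05 (2.95 to 5.65), and *ARHGAP28*, a GTPase-activating protein, a ratio of 3.46 (2.47 to 4.93). On the lower side, *IGFBP1*, a liver-secreted binding protein of insulin-like growth factors, was at 16.9 and 77.4 CPM, 4.58-fold (2.92 to 7.46) lower in E19 HSTS. *GPX2*, an epithelial glutathione peroxidase, was 2.89-fold (2.06 to 4.12) lower, and *SRR*, serine racemase, 3.17-fold (2.37 to 4.29) lower. *GPX2* and *SRR* were not lower in the other cells, where their ratios were 1.48 and 1.14.

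Endocytic uptake genes were also higher in E19 HSTS, 3 of 5 (6.70% over all genes) with 0 lower and a median ratio of 2.01. *DAB2* was at 40.1 and 5.06 CPM, with a ratio of 7.92 (3.61 to 20.6), and *LRP2* had 2.13 (1.33 to 3.49). In cells with at least 3 UMIs of *AMBP* and under 3 of *AQP8*, *LRP2* and *FCGRT* were not past the fold, with 1.39 (0.819 to 2.39) and 1.90 (1.15 to 3.20), and 22 of the 59 *LRP2* UMIs of E19 HSTS lay in 7 cells with *AQP8*. Of the basement membrane genes 2 of 7 were higher, beside the same 6.70%, and 0 lower, with a median ratio of 1.86. Of the mesenchyme markers 2 of 6 were higher too (*COL3A1* and *POSTN*) and 0 lower, with a median ratio of 1.25. The part of mesenchymal transcripts was not tested.

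Some differences ran through the whole library. *GAPDH* had 12 UMIs in the selected cells of E19 HSTS and 2478 in those of E19 HS, and was at 4.51 and 1472 CPM in the other cells. In the glycolysis list 6 of 14 genes were lower (2.50% over all genes) and 0 higher, with a median ratio of 0.558. *PGK1* and *TPI1*, enzymes of the pathway, had ratios of 0.481 (0.412 to 0.560) and 0.479 (0.346 to 0.655), and in the other cells 0.552 and 0.521. *GSTM3*, a glutathione transferase, had 0.280 (0.212 to 0.367) and, in the other cells, 0.316. The heat shock genes *HSPA1A* and *DNAJB1* were higher, with ratios of 6.81 (3.07 to 17.8) and 2.33 (1.75 to 3.13), and in the other cells 6.14 and 2.95.

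**Figure D2:**
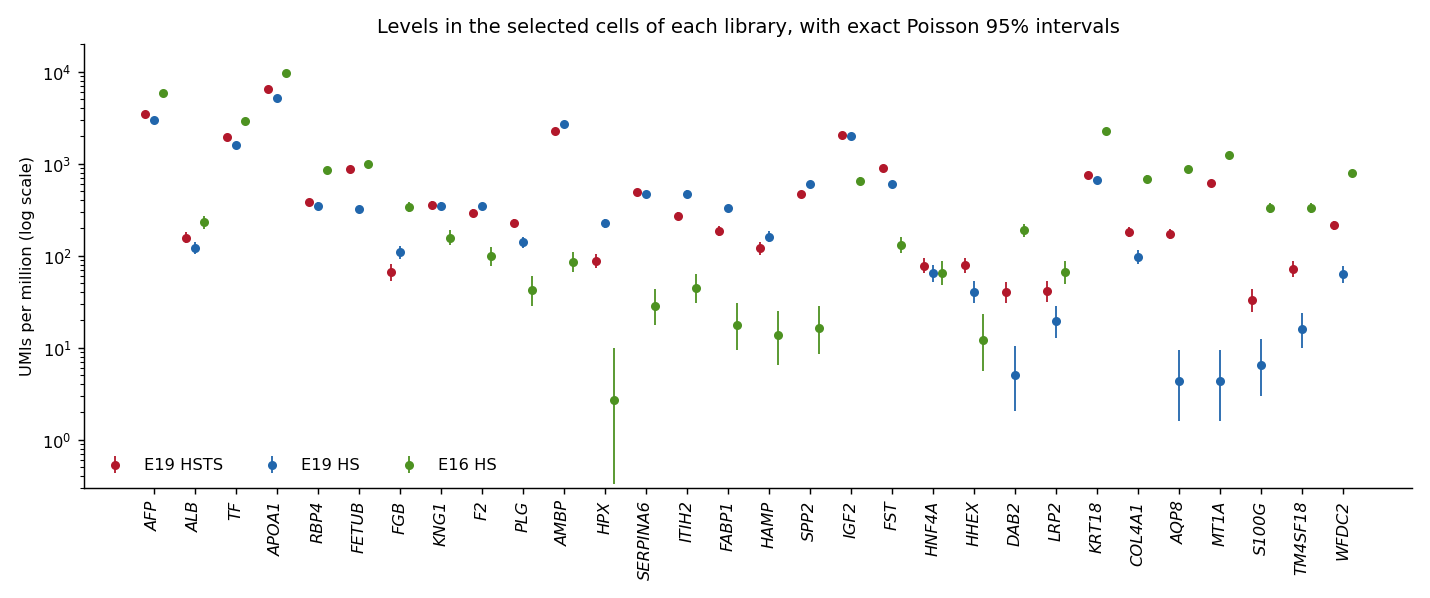
CPM (vertical axis, log scale) of named genes in the selected cells of each library, points with exact Poisson intervals. From *AMBP* to *SPP2* E16 HS lies below both E19 libraries (*HPX* at 2.73 CPM), and from *AQP8* to *WFDC2* E19 HS lies lowest.

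In the selected cells of E16 HS, against those of E19 HS, a set of liver products was lower by 10-fold or more, while other plasma proteins were higher. In the clustering described below, subclusters 4 and 2 held 40 and 34 of the 76 cells of E16 HS. They held 1 and 21 of the 120 cells of E19 HS, so the stages are compared across largely different subclusters. The part of this in the differences was not tested. Of 4974 genes measured, 351 were at least 2-fold higher (7.06%) and 604 at least 2-fold lower (12.1%), and the median ratio was 0.893. With at least 100 UMIs the numbers were 88 and 151. In the coagulation list 7 of 9 genes were lower and 1 higher, with a median ratio of 0.366. Among the carriers of plasma 7 of 14 were lower and 3 higher (*RBP4*, *FETUB* and *TTR*, of which *TTR* is a gene of the rule), with a median of 0.627, and among apolipoproteins and lipid export 5 of 11 were lower and 2 higher, with a median of 0.503.

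Most of the genes that were lowest at E16 encode products of the liver. *AMBP* was at 85.9 CPM in E16 HS and 2719 in E19 HS, 31.6-fold (24.7 to 41.3) lower. *SERPINA6* was at 28.6 and 470.2 CPM, 16.4-fold (10.6 to 26.7) lower, and *SPP2*, a secreted phosphoprotein, at 16.4 and 603 CPM, 36.8-fold (21.0 to 71.5) lower. *HPX* had 2 UMIs and 312, with a ratio of 0.0121 (0.00146 to 0.0440). Fatty acid binding protein *FABP1* was 18.4-fold (10.7 to 34.8) lower, and *HAMP*, which encodes the iron hormone hepcidin, 11.8-fold (6.31 to 25) lower. *ITIH2* was 10.5-fold (7.42 to 15.4) lower and *APOH*, a phospholipid-binding apolipoprotein, 5.37-fold (3.98 to 7.41) lower. *SRR* and the imprinted *NNAT*, which are not known as liver products, were also among the lowest, with 2 and 5 UMIs in E16 HS against 191 and 331 in E19 HS.

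Among coagulation factors, *F10*, coagulation factor X, was 8.88-fold (3.31 to 33.6) lower, on 4 and 67 UMIs, and others differed by less. Prothrombin *F2* was at 98.2 and 345 CPM, 3.51-fold (2.74 to 4.57) lower. *PLG* (plasminogen) was 3.32-fold (2.26 to 5.02) lower and *KNG1* 2.22-fold (1.81 to 2.74) lower, a value of 1.65-fold with at least 100 UMIs of the rule genes required. The signalling genes *IGF2* and *FST* were lower too. The growth factor *IGF2* was at 648 and 2003 CPM, 3.09-fold (2.80 to 3.42) lower, where the other cells had a ratio of 1.48. *FST*, follistatin, which binds activins, was 4.57-fold (3.70 to 5.71) lower. Of 8 hepatic transcription factors measured, 3 were lower (12.1% over all genes) and 0 higher, with a median ratio of 0.776. Of 14 hepatoblast genes, 2 were lower and 3, all keratins, higher (7.06% over all genes), with a median ratio of 1.28. *HHEX*, which is on both lists, was 3.30-fold (1.62 to 7.59) lower, on 9 and 56 UMIs. Without cells with at least 3 UMIs of *AQP8* its ratio was 0.563 (0.245 to 1.15), not past the fold. *HSPA5*, the main chaperone of the endoplasmic reticulum, was 2.88-fold (2.44 to 3.42) lower.

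Some plasma proteins were higher at E16. In E16 HS most of their UMIs lay in 37 cells with at least 3 UMIs of *AQP8*. The other 39 were 7 cells with *AMBP* and 32 with neither, and the 32 had a median of 24 UMIs over the rule genes, not far above the threshold. Ratios without the 37 cells are therefore given as a description, and the part of the threshold in them was not tested. *TTR*, a carrier of thyroid hormone and a gene of the rule, was at 6173 and 961 CPM, with a ratio of 6.42 (6.04 to 6.83), and without those cells the ratio was 0.620, where the rule itself used *TTR*. *FETUB* had 3.08 (2.73 to 3.47) and, without them, 0.284. *FGB* had 3.06 (2.49 to 3.77) and 0.325. *AFP*, with 1.95 (1.87 to 2.03), *ALB*, with 1.89 (1.51 to 2.35), and *APOA1*, the main protein of high-density lipoprotein, with 1.89 (1.83 to 1.95), went to 0.0785, 0.187 and 0.450. Of the 4253 *AFP* UMIs of E16 HS, 4161 lay in the 37 cells.

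Keratins of simple epithelia and genes of the basement membrane and of endocytic uptake were higher at E16. *KRT18* and *KRT19* were at 2262 and 1546 CPM in E16 HS and at 662 and 305 in E19 HS, with ratios of 3.42 (3.15 to 3.71) and 5.08 (4.54 to 5.69), and in the other cells the ratios were 3.42 and 5.01, so the keratins were as much higher there. The epithelial adhesion genes *EPCAM* and *CDH1* had 1.40 (1.13 to 1.74) and 1.15 (0.492 to 2.58). *COL4A1*, a chain of basement membrane collagen, had 7.09 (5.84 to 8.65), against 2.05 in the other cells. In the list of parietal endoderm and basement membrane 5 of 7 genes were higher and 0 lower, with a median ratio of 3.30. Over all genes 7.06% were higher and 12.1% lower. Of the mesenchyme markers 5 of 7 were higher too and 1 lower, with a median ratio of 3.60, and without the cells with *AQP8* the ratio of *COL4A1* was 9.87. The part of mesenchymal transcripts in the basement membrane values was not tested. In the list of endocytic uptake 3 of 4 genes were higher (7.06% over all genes) and 0 lower, with a median ratio of 4.05. The ratios were 37.4 (17.7 to 94.8) for *DAB2* and 3.42 (2.10 to 5.69) for *LRP2*. The Fc receptor *FCGRT*, which carries immunoglobulin G across cells, had 4.68 (3.00 to 7.47). Without the cells with *AQP8*, *LRP2* was not past the fold, with 1.43 (0.639 to 2.97), an interval that holds 1. *DAB2* and *FCGRT* stayed past the fold there, with 6.004 and 3.38. Of the 139 *DAB2* UMIs of E16 HS, 127 lay in the 37 cells with *AQP8*.

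**Figure D3:**
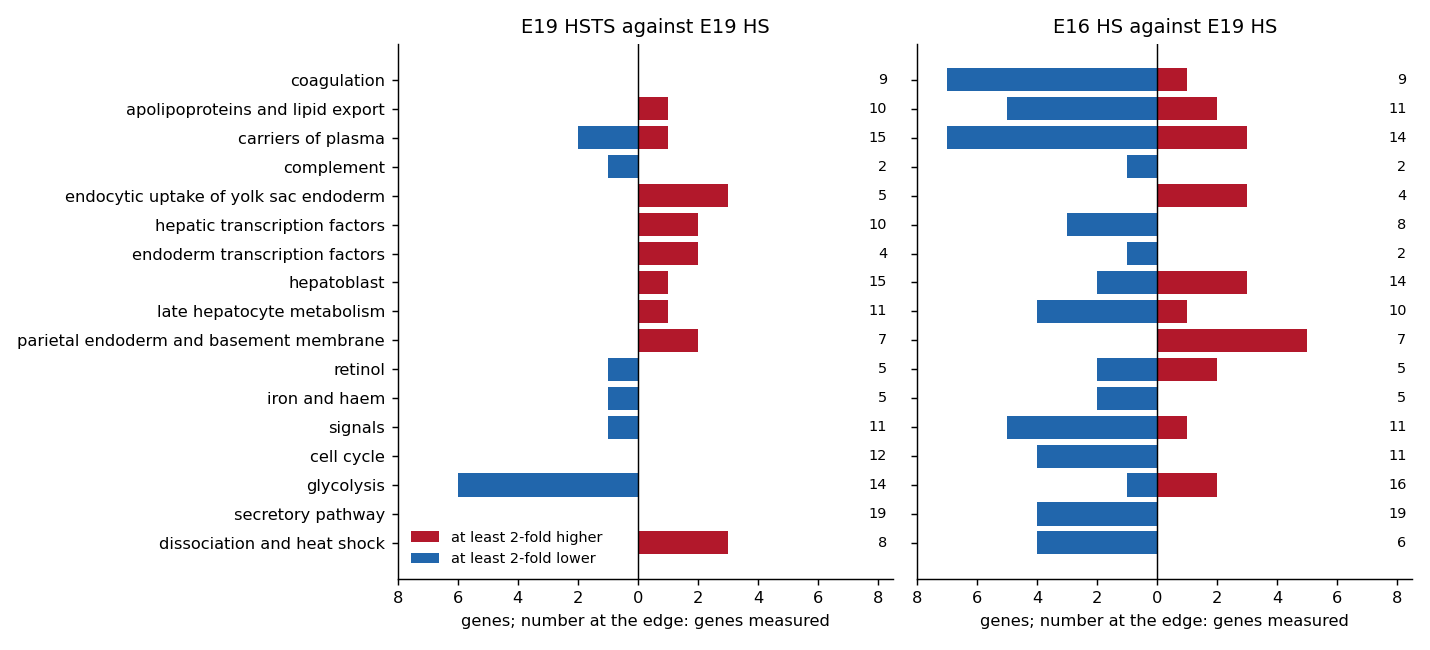
Number of genes (horizontal axis) of each gene list at least 2-fold lower (left of 0) and higher (right of 0) in the selected cells, comparing breeds at day 19 (E19 HSTS against E19 HS) and stages (E16 HS against E19 HS), with the number of list genes measured at the right edge. In the comparison of stages 7 of 9 coagulation genes lie on the lower side, and 5 of 7 basement membrane genes on the higher side. Over all genes 12.1% were lower and 7.06% higher.

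The selected cells were not of 1 kind. *AQP8*, a water channel known from liver, pancreas and gut, and *AMBP* were found largely in different cells, a split chosen after the values were seen and given with no test. At least 3 UMIs of *AQP8* were present in 7, 1 and 37 cells. Of the other cells, at least 3 UMIs of *AMBP* were present in 94, 107 and 7. Neither was reached in 18, 12 and 32 cells. At least 3 UMIs of both were present in 1, 0 and 4 cells. Among kept cells outside the selection, 4, 8 and 11 had at least 3 UMIs of *AQP8*. *MT1A*, *AQP8* and *S100G* had the highest ratios of E16 HS to E19 HS among genes with at least 100 UMIs. For *AQP8* the ratio was 203 (92.6 to 554), on 645 and 6 UMIs, and for *S100G* it was 51.3 (26.6 to 114).

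The shares of cells with these genes are given at full and at equal depth. A UMI of *AQP8* was found in 9.24%, 2.50% and 55.3% of selected cells, and after thinning to 3000 UMIs in 5.77% (2.15 to 12.1%), 0.990% (0.0251 to 5.39%) and 42.6% (30.7 to 55.2%). For *AMBP* the shares were 87.4%, 95% and 30.3%, and after thinning 83.7% (75.1 to 90.2%), 93.1% (86.2 to 97.2%) and 20.6% (11.7 to 32.1%). These intervals cover the counting of cells within 1 library each. In cells with at least 50 *AHSP* UMIs, of median depth 25274, 27139.5 and 19743.5 UMIs, *AQP8* and *AMBP* were found in 0% of cells in each library and *HHEX* in 0%, 2.17% and 3.81%.

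**Figure D4:**
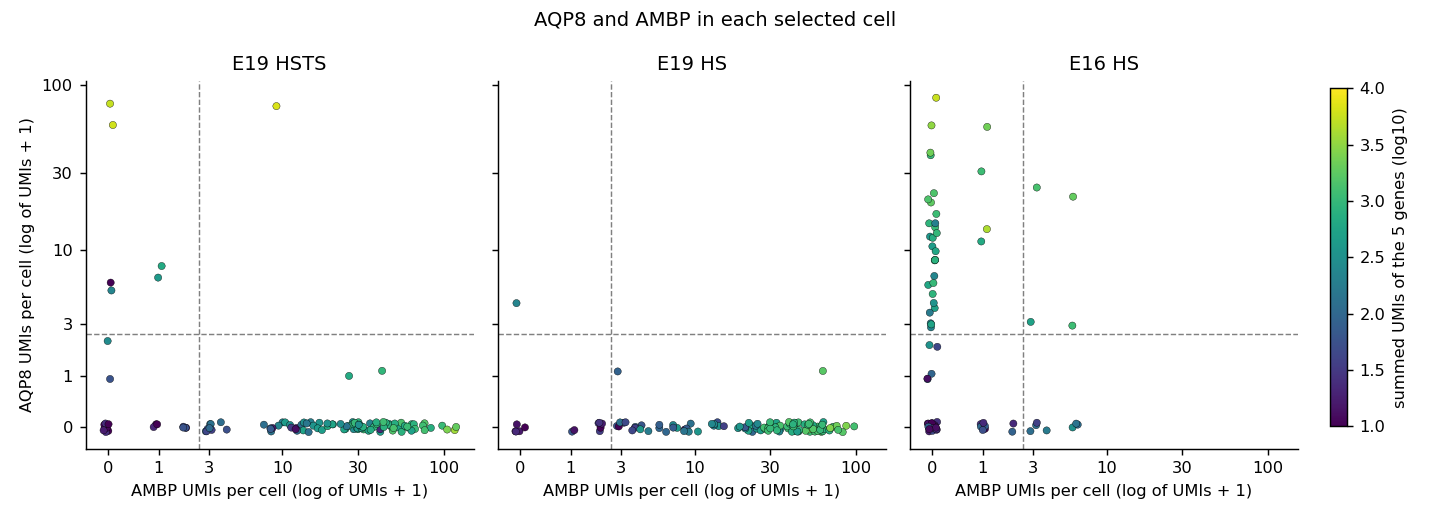
UMIs of *AMBP* (horizontal axis) and of *AQP8* (vertical axis), both as log of UMIs + 1, in each selected cell of the 3 libraries, with colour for the log10 of the summed UMIs of the 5 genes of the rule and dashed lines at 3 UMIs. Points are shifted slightly at random so that equal values can be seen. In E16 HS 37 cells lie above the horizontal line, and in E19 HS 107 lie right of the vertical line below it.

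In E16 HS the cells with *AQP8* were those farthest above the threshold, and a UMI of *HHEX* was not found in them. As a description of the choice, their summed UMIs of the 5 genes had a median of 929 (174 to 5556), against 119 in the 7 cells with *AMBP* and 24 in the 32 cells with neither. *AHSG* (fetuin A) was at 67087 CPM in them, where the cells with *AMBP* of E19 HS had 17944 CPM, and *TTR* was at 12665 CPM. *HHEX* was found in 0 of 37 of these cells, which allows up to 8.11% of cells with a UMI and sets no limit on cells that express the gene at this depth, and *DAB2* in 34. In cells with *AMBP*, *HHEX* was found in 60 of 94 (E19 HSTS) and 43 of 107 (E19 HS), and *DAB2* in 17 and 5. The median depth of these 3 groups of cells was 7622, 13770 and 12455 UMIs. The cells with *AQP8* of E16 HS had a median of 0.182% mitochondrial UMIs and 25 of 37 were under 1%, while the cells with *AMBP* had medians of 3.75% in E19 HSTS and 3.06% in E19 HS. What part the mitochondrial share has in these levels was not tested.

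Since E19 HSTS held both kinds, they could be compared within 1 library and 1 day, 7 cells against 94. The 7 cells ran from 10 UMIs of the 5 genes, the threshold, to 6784, with a median of 664. *APOM*, an apolipoprotein that carries sphingosine 1-phosphate, was at 4294 CPM in the cells with *AQP8* and 329 in those with *AMBP*, a ratio of 13.1 (11.4 to 15.0). *FETUB* had a ratio of 13.8 (12.3 to 15.5), *FGB* 18.3 (11.8 to 28.6) and *APOA1* 4.37 (4.16 to 4.58). The uptake genes *DAB2* and *LRP2* had 10.5 (5.99 to 18.3) and 7.88 (4.40 to 13.8), and *KRT19* 4.16 (3.47 to 4.97). *TM4SF18*, a transmembrane 4 protein, and *WFDC2*, a secreted protein of epithelia, had 51.9 (28.6 to 101) and 12.3 (9.33 to 16.2). The calcium-binding *S100G* had 46 UMIs against 0, and 39 of them lay in a single cell.

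Some of the products that were lower at E16 were also lower in the same 7 cells, and others were not. *SERPINA6* was 7.73-fold (3.73 to 19.3) lower, *SPP2* 5.84-fold (3.06 to 12.8) lower and *ITIH2*, with 0 UMIs, at least 10.2-fold lower against a floor of 3 UMIs over the 7 cells. *APOH* and *F2* had ratios of 1.16 (0.837 to 1.58) and 1.06 (0.713 to 1.52), whose intervals hold 1, and 35 of the 45 *APOH* UMIs of the 7 cells lay in a single cell. *HHEX* had 1 UMI against 107. *IGF2* was 2.68-fold (2.15 to 3.38) lower and *HSPA5* 2.45-fold (1.73 to 3.58) lower. *ALB* and *AFP* lay on the higher side, with ratios of 1.84 (1.19 to 2.74) and 1.90 (1.74 to 2.06). These intervals cover counting of UMIs, and few cells set the values: a single cell held 71.5% of all *MT1A* UMIs and a single cell 31.6% of all *AQP8* UMIs of the library's selected cells.

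The zinc-binding metallothionein *MT1A* was at 8813 CPM in the cells with *AQP8* of E19 HSTS and 2635 in those of E16 HS, and had 4 and 4 UMIs in all cells with *AMBP* of E19 HSTS and E19 HS. Over all selected cells it had 867, 6 and 905 UMIs. The ratio between the breeds at day 19 was 141 (64.3 to 384), and 1.83 without cells with *AQP8*. *MT1C* was at 3719.8 and 1720.3 CPM in the same cells. Over all selected cells its ratio between the breeds was 7.48 (5.53 to 10.3), higher in E19 HSTS, and in cells with *AMBP* it was on the other side, 10.9-fold (4.00 to 41.8) lower in E19 HSTS on 4 and 47 UMIs. Metallothionein genes are close copies of each other, so the split of counts between them is uncertain.

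**Figure D5:**
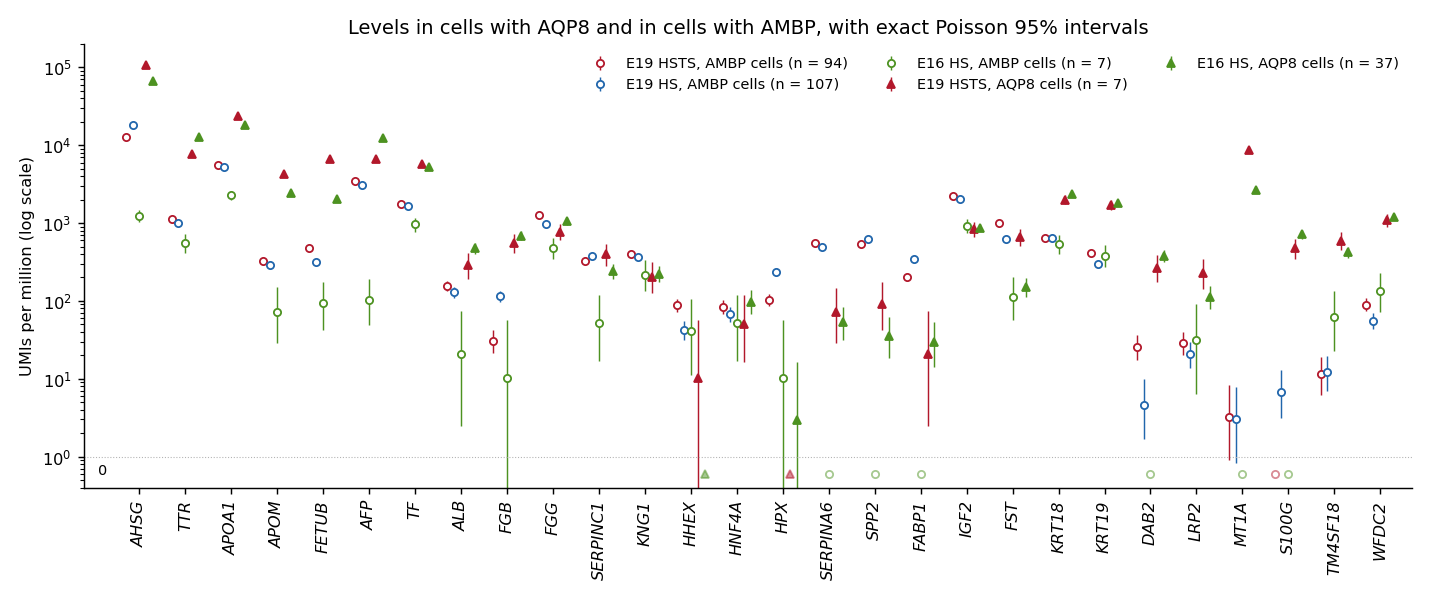
CPM (vertical axis, log scale) of named genes in cells with at least 3 UMIs of *AQP8* (triangles) and in other cells with at least 3 UMIs of *AMBP* (open circles), by library, with exact Poisson intervals; faint symbols under the dotted line stand for 0 UMIs. The 1 such cell with *AQP8* of E19 HS is not drawn. Triangles of E19 HSTS and E16 HS lie close together for *KRT18*, *IGF2* and *WFDC2*, and both lie above the circles for *AHSG* and *APOM*.

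Between the 7 cells of E19 HSTS and the 37 of E16 HS, 102 of 1642 genes measured were at least 2-fold higher in E19 HSTS and 361 lower. *TF* had a ratio of 1.09 (0.989 to 1.20), *IGF2* 0.959 (0.741 to 1.23), *KRT19* 0.938 (0.786 to 1.12) and *WFDC2* 0.911 (0.729 to 1.13), whose intervals hold 1. *FETUB* had 3.26 (2.92 to 3.63) and *FST* 4.43 (3.02 to 6.52), higher in E19 HSTS, and *AFP* 0.544 (0.50 to 0.591), lower. With cells of the *AMBP* kind alone, the breeds could be set side by side in 94 and 107 cells. *SKIL* had 5.17 (3.78 to 7.21) there, *NR5A2* 2.76 (1.45 to 5.55) and *HHEX* 2.09 (1.5 to 2.95). *HPX* was 2.30-fold (1.87 to 2.86) lower, *C5* 5.51-fold (3.04 to 10.8) lower and *IGFBP1* 6.58-fold (3.81 to 12.2) lower in E19 HSTS. *DAB2* had 5.55 (2.28 to 16.3) there, so its higher level in E19 HSTS was also seen outside the cells with *AQP8*, on few UMIs, while *TM4SF18* had 0.940. *FGB* was 3.77-fold (2.62 to 5.56) lower, where over all selected cells it was 1.66-fold (1.28 to 2.17) lower. *ALB*, *APOA1* and *KNG1* had ratios whose intervals hold 1.

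Clustering of the 315 cells on all genes gave 5 subclusters, which are numbered and, since every gene was used to make them, described without a test. Subcluster 1 (36, 49 and 0 cells) led with *MX1*, an interferon-induced GTPase, *TTC36*, *HPX* and *F10*. Subcluster 3 (34, 33 and 1) led with genes of mitosis such as *PRC1*, *ANLN*, *TTK* and *AURKA*. Subcluster 4 (7, 1 and 40) led with *AQP8*, *MT1A*, *S100G* and *MT1C*, and had 0 UMIs of *HHEX*. Subcluster 5 (25, 16 and 1) led with histone genes, with a median of 2599.5 UMIs and 39 of 42 cells under 1% mitochondrial UMIs.

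Subcluster 2 (17, 21 and 34 cells) went against the name of the population. It led with *ACTC1*, *MYL4* and *TNNI1* of striated muscle, *FILIP1L*, and *STMN2* and *SCG5* of neurons, and its cells had a median of 25 UMIs of the 5 genes. *AFP* was at 132 CPM there, against 3734 in subcluster 1 and 11637 in subcluster 4. The epithelial *EPCAM*, at 254 CPM, was highest in subcluster 2, against 109 to 190 in the others. *KRT18*, at 1344 CPM, was above all but subcluster 4, which had 2426. The leading genes therefore do not name the kind of these cells. Of the leading gene *ACTC1* the subcluster had 111 UMIs, most of them in the single cell of E19 HS named above. The ratio of *ACTC1* of E16 HS to E19 HS over all selected cells was 0.0187, so it does not describe the cells of E16 HS. These 72 cells met the rule and are therefore counted, and they made up 34 of the 76 cells of E16 HS. With at least 100 UMIs of the 5 genes required, the share of kept cells was 0.946%, 0.856% and 0.415%, and *AMBP* was 26.9-fold lower in E16 HS than in E19 HS.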

How the data were processed

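Single-cell RNA libraries were made from whole sheep embryos with the 10x Genomics droplet system. The authors aligned the reads to the sheep assembly named Ovis_aries_genome_v1.0 with Cell Ranger and deposited raw UMI counts per gene and barcode (107817481 UMIs in 11114 barcodes of E19 HSTS, 94754580 in 12064 of E19 HS and 128271878 in 12645 of E16 HS). The submitters' processing notes name Cell Ranger 6.1.2, Seurat 4.1.1 and R 4.1.2. Of 26478 genes, 16670 carried a symbol, and 324 of 364 entries of 29 gene lists could be matched. 0 columns belonged to samples of another series. An E16 HSTS library is not analysed here.

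Kept barcodes had 200 to 6000 genes, a depth of 1000 to 30000 UMIs, and mitochondrial genes in no more than 10% of the UMIs. No cell annotation was used. UMIs were summed over the selected cells of a library and divided by their total (1421189, 1382487 and 733306 UMIs) to give CPM. Ratios have exact conditional binomial intervals and levels exact Poisson intervals. Against a library with 0 UMIs, 3 UMIs were taken as the floor. Each group has 1 library, so no p-value was computed, and the ratio of at least 2 is a rule of size. Named genes were the 12 that lead the ratio of selected to other cells (at least 50 UMIs), the 8 highest and 8 lowest ratios of each comparison (at least 100 UMIs), and genes of the lists described in the text. Names outside this rule, and the grouping by *AQP8* and *AMBP*, were chosen after their values were seen. The members and lists were chosen with earlier results of these data known.

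Subclusters came from 2000 variable genes, 20 principal components and Leiden clustering at resolution 0.5. Thinning drew 3000 UMIs per cell and left out shallower cells. Doublets were scored and not removed. The ratio and interval code was tested on simulated data. Python 3.11.15, numpy 2.4.6, scipy 1.17.1, pandas 2.3.3, scanpy 1.11.5, matplotlib 3.10.9 and edgeR 4.0.16 (scaling factors only) were used. Alternatives covered the cell filter, the rule, doublets, depth, free RNA, the minimum of UMIs, the scaling and the resolution.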

Additional observations from a re-analysis of the deposited data

How the results depend on the processing

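The shares of kept cells and of cells with *AQP8* or *AMBP* depended on the rule. With *AHSP* at 0 UMIs the selected cells were 0.521% of kept cells in E16 HS, and without the 8% highest doublet scores 0.828% in E19 HS. A UMI of *AMBP* was found in 98.2% of E19 HS cells with at least 20 UMIs over the 5 genes and in 99.1% with at least 4 of the genes, a setting that put *AQP8* at 67.2% in E16 HS. Thinning to 3000 UMIs, which removes UMIs by construction, put it at 42.6%. Genes at least 2-fold higher and lower numbered 158 and 92 (E19 HSTS against E19 HS) and 140 and 291 (E16 HS against E19 HS) after thinning, 59 and 22, and 88 and 151, with at least 100 UMIs, 1900 and 1833, and 2638 and 1306, with at least 1 UMI. With the level in *AHSP*-rich cells subtracted they were 806 and 338 in the first comparison, and 1313 were lower in the second. Fewer or more genes are tested under the minimums by construction, and for the others the cause was not tested.

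Settings chosen after seeing the data were at least 100 UMIs over the 5 genes, at least 1% mitochondrial UMIs, cells with under 3 *AQP8* UMIs, and the cells with *AMBP*. At 100 UMIs the shares of kept cells were 0.946%, 0.856% and 0.415%, *AMBP* was found in 95.6% and 98.9% of the E19 cells and *AQP8* in 83.0% of E16 HS. With at least 1% mitochondrial UMIs the shares of kept cells were 0.946%, 0.922% and 0.282%. Ratios past the fold that turned were those of *TTR* (0.620), *FETUB* (0.284), *FGB* (0.325) and *S100G* (0.778) for E16 HS to E19 HS without cells with *AQP8*, and, for E19 HSTS to E19 HS, *TM4SF18* (0.940) in cells with *AMBP* and *MT1C* in those cells (0.0915) and without cells with *AQP8* (0.133). Ratios of E16 HS to E19 HS under 2 that crossed 1 without cells with *AQP8* included *AFP* (0.0785), *AHSG* (0.0795), *ALB* (0.187) and *APOA1* (0.450). The cause was not tested. Of the named genes past the fold, 19 of 30 in the first comparison and 33 of 43 in the second were past it under every setting run. Scaling factors from edgeR's TMM were 1.08, 0.991 and 0.936 and turned no ratio that was past the fold.

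No paired analysis was possible because each group has 1 library, and no library could be left out for the same reason. The intervals cover counting error and not the spread between embryos. Genes under the minimum of 20 UMIs are given as UMIs, and an absence at 0 UMIs holds to 2.11, 2.17 and 4.09 CPM.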

Other observations

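Other gene groups of the selected cells differed between the stages. Of 11 cell cycle genes measured, 4 were at least 2-fold lower in E16 HS than in E19 HS and 0 higher, with a median ratio of 0.591, among them *AURKA*, a kinase of mitosis (0.416), and *MCM6*, a subunit of the replicative helicase (0.494). In the other cells these 2 genes had ratios of 1.16 and 1.38. With at least 100 UMIs over the 5 genes *AURKA* had 0.593 (0.298 to 1.09), not past the fold. *MCM6* reached 0.666 among the settings run and was not past it there. Of 19 genes of the secretory pathway, 4 were lower and 0 higher, including *PDIA4*, a disulfide isomerase (0.445), and *MANF*, a factor of the stress response of the endoplasmic reticulum (0.435), where the other cells had 1.29 and 1.64. The background of genes lower in this comparison was 12.1%. None of the 12 cell cycle genes and none of the 19 secretory genes passed the fold between the E19 libraries. Over all genes 6.70% were higher and 2.50% lower in E19 HSTS, so these counts lie near that share.

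Genes of dissociation and heat shock were at least 2-fold lower in E16 HS in 4 of 6 cases, against 12.1% of all genes measured. The summed level of the list was not lower, at 3892 CPM in E16 HS and 3806 in E19 HS. *FOS*, an immediate early gene, had a ratio of 0.0490 in the selected cells and 0.0302 in the other cells. The part of handling in these values was not tested. Of 6 genes of gut epithelium measured, 3 were at least 2-fold higher in E16 HS than in E19 HS, against 7.06% of all genes measured. With E19 HSTS first and E16 HS last, genes of the nephric lineage reached 21.1, 11.6 and 13.6 CPM against 32.0, 33.7 and 27.5 CPM in the other cells, of neurons 9.15, 12.3 and 31.4 against 177, 239.8 and 70.0, and of somites 12, 8.68 and 5.45 against 47.4, 37.3 and 35.6.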
